A study of Rattus norvegicus with 12 samples.

Results

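The mRNAs of 3 NMDA receptor subunits were followed across RNA sequencing libraries of cultured rat cortical neurons: Grin1 (ENSRNOG00000011726), Grin2a (ENSRNOG00000033942) and Grin2b (ENSRNOG00000008766). They were chosen by their identifiers, 3 of 25424 genes listed, and all 3 were among the 12150 genes tested, those with a mean FPKM of at least 1 (fragments normalised to transcript length and to the mapped fragments of the library). The choice was made after the comparison of ribosome-enriched with total RNA had been seen, with Grin2b among its largest differences. Levels in the 2 fractions are therefore described below without a test, and tests were kept for the comparison of treated with vehicle neurons.

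The NMDA receptor is a glutamate-gated cation channel that passes calcium when glutamate binds while the membrane is depolarised, and it starts many forms of synaptic plasticity. Each receptor contains the obligatory GluN1 subunit, encoded by Grin1, which binds the co-agonist glycine or D-serine. GluN1 is joined by glutamate-binding GluN2 subunits, of which GluN2A (Grin2a) and GluN2B (Grin2b) predominate in the forebrain. In cortex, GluN2B is abundant from before birth and GluN2A rises as synapses mature, so the balance of the pair is widely used as a sign of receptor maturation.

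The neurons came from embryonic Sprague-Dawley rats and were lysed at 28 days in vitro. They had received 100 nM of an oligomer preparation of synthetic rat amyloid-β peptide (Aβ) or its HEPES vehicle for 24 h, and their cytosolic lysate was sequenced either directly (total) or after pelleting through a sucrose cushion (ribosome). The 4 groups, Aβ ribosome, vehicle ribosome, Aβ total and vehicle total, held 3 libraries each, which are called here by the number in their title. All 4 groups shared the NMDA receptor antagonist D,L-APV, added to the medium in the first week of culture. They also shared cycloheximide, added for the last minutes to hold ribosomes on mRNA. Part of the medium was changed weekly, and the study does not state whether the new medium held D,L-APV. Vehicle neurons had thus been given a receptor antagonist too, and no group without it was analysed here. Libraries held about 14090000 to 20037000 mapped fragments. The study describes its samples as biological replicates and its sequencing of the 2 fractions as paired. The labels name neither the culture behind each library nor the pairs, so p-values measure the spread between libraries. Markers of neurons and glia could not be checked because no identifier of the file matched the reference table, and in such bulk samples fewer cells of a type and less RNA per cell cannot be told apart.

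In total RNA the order of the 3 mRNAs was Grin1, then Grin2b, then Grin2a, with no overlap between genes on the length-corrected FPKM scale. Grin1 stood at 88.9, 82.4 and 87.0 FPKM in vehicle total libraries 4, 8 and 12 and at 87.1, 78.3 and 82.5 FPKM in Aβ total libraries 3, 7 and 11. Grin2b, whose subunit gives receptors slow deactivation and a long tail that binds CaMKII, stood at 21.7, 24.3 and 26.5 FPKM in the vehicle total libraries and at 23.7, 24.2 and 27.7 FPKM in the Aβ total libraries. Grin2a, whose subunit gives faster currents, stood at 12.3, 14.03 and 14.1 FPKM in vehicle total and at 13.8, 12.8 and 13.0 FPKM in Aβ total. Each gene kept a narrow range here, the highest of the 6 total libraries being 1.14 times the lowest for Grin1, 1.15 times for Grin2a and 1.28 times for Grin2b. Vehicle and Aβ total libraries overlapped for all 3 genes.

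In the ribosome fraction Grin1 kept most of its FPKM, while both GluN2 mRNAs were low. Vehicle ribosome libraries 2, 6 and 10 gave 71.9, 43.4 and 50.4 FPKM for Grin1, and Aβ ribosome libraries 1, 5 and 9 gave 59.99, 46.5 and 50.8 FPKM. The same vehicle ribosome libraries gave 2.59, 2.41 and 3.23 FPKM for Grin2b, and the Aβ ribosome libraries gave 2.38, 2.52 and 2.91 FPKM. Grin2a was at 0.501, 1.67 and 3.91 FPKM in vehicle ribosome and at 1.40, 1.23 and 3.14 FPKM in Aβ ribosome. Grin1 was again highest in every library, but the ranges of Grin2b and Grin2a overlapped: Grin2b exceeded Grin2a in libraries 1, 2, 5 and 6 and lay below it in libraries 9 and 10.

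Group means on the deposited scale were 86.1 ± 3.35 FPKM (SD, n = 3, as for all group means) for Grin1 in vehicle total, 82.6 ± 4.43 in Aβ total, 55.2 ± 14.9 in vehicle ribosome and 52.4 ± 6.87 in Aβ ribosome. For Grin2b the 4 means, in that order of groups, were 24.2 ± 2.43, 25.2 ± 2.17, 2.74 ± 0.429 and 2.61 ± 0.277 FPKM. For Grin2a they were 13.5 ± 1.03, 13.2 ± 0.509, 2.03 ± 1.73 and 1.92 ± 1.06 FPKM. The SD of Grin2a in the vehicle ribosome group was thus close to its mean, whereas that of Grin2b was small in both ribosome groups.

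**Figure D1:**
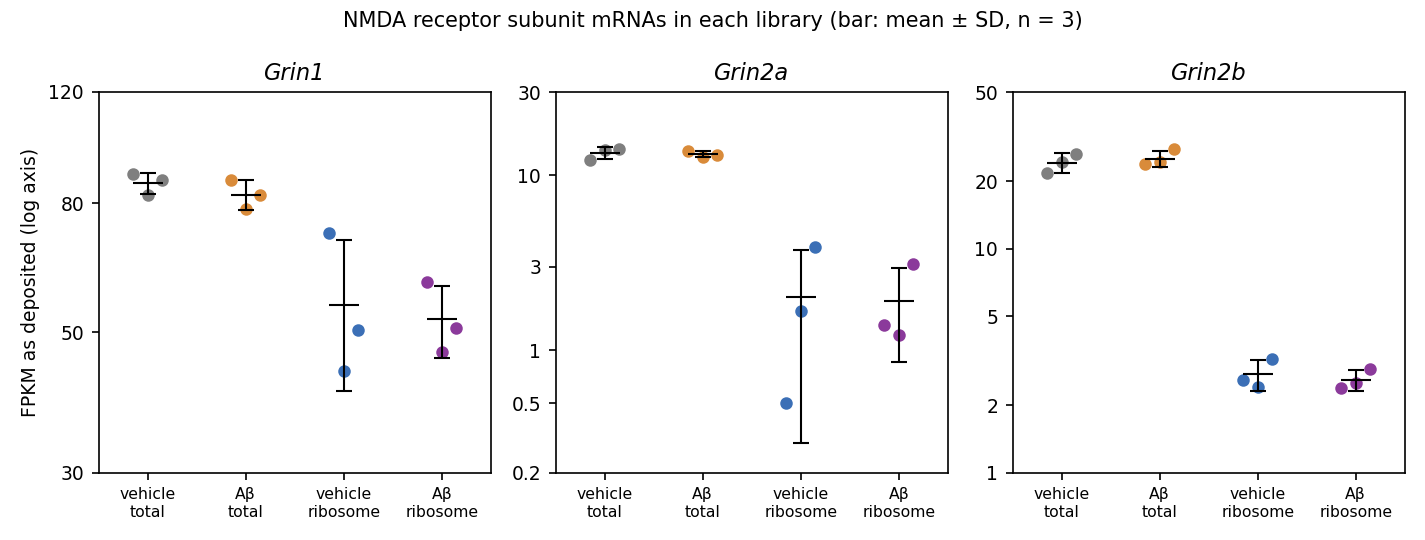
FPKM as deposited (vertical log axis, a separate range for each gene) of Grin1, Grin2a and Grin2b in the 4 groups; points are single libraries in order of library number, horizontal bars and whiskers the mean ± SD of 3 libraries. Grin2b lies at 21.7 to 27.7 FPKM in total RNA and at 2.38 to 3.23 FPKM in the ribosome fraction, and Grin2a scatters widely in the ribosome fraction.

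The values rest on whole fragments, which could be recovered from the FPKM. Grin1, on a transcript model of 4164 bases, was covered by 3273 to 4219 fragments in ribosome and 5714 to 6757 in total libraries. Grin2b, on 5259 bases, was covered by 179 to 271 fragments in ribosome and by 1979 to 2738 in total libraries. Grin2a, on 4395 bases, had 939 to 1129 fragments in the total libraries but only 31 in vehicle ribosome library 2 (exact 95% Poisson interval 21.1 to 44.0), against 274 in vehicle ribosome library 10 (243 to 308). These intervals, which cover counting error only, do not overlap, so the scatter of Grin2a among ribosome libraries was larger than counting error.

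The comparison of fractions asks how an mRNA stood among the mRNAs of the ribosome pellet relative to those of the lysate. Levels are relative to the other genes of a library, so the share of an mRNA that entered the pellet was not measured. For this comparison and the later differences each library's FPKM were divided by its median-of-ratios size factor (scaled FPKM). Differences are of log2(scaled FPKM + 1). On the scaled level the mean of the 6 total libraries was 7.495 times that of the 6 ribosome libraries for Grin2b, 5.54 times for Grin2a and 1.27 times for Grin1. As deposited the ratios were 9.23, 6.77 and 1.57. Scaling is part of that gap for every gene, since without it the median difference of all genes tested moved to −0.30 in vehicle and −0.23 in Aβ neurons. Set beside that shift, the deposited scale gave a log2 difference of −2.75 for Grin2b in vehicle and −2.86 in Aβ neurons, and of −0.66 and −0.65 for Grin1.

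All 6 ribosome libraries lay below all 6 total libraries for Grin2b and for Grin2a on both scales. The lowest total library was 5.57 times the highest ribosome library for Grin2b and 2.61 times for Grin2a in scaled FPKM. Such a separation was shared by 20.6% of the genes tested in scaled FPKM and by 33.2% as deposited, and since these libraries chose the genes nothing is read from it. Grin1 overlapped between fractions in scaled FPKM, because vehicle ribosome library 2, at 81.2, lay above the total libraries, which ran from 68.9 to 81.0. As deposited Grin1 did not overlap, at 43.4 to 71.9 FPKM against 78.3 to 88.9.

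In vehicle neurons the ribosome-minus-total difference was −2.46 on the log2 scale for Grin2b (SE 0.16, 95% interval −2.83 to −2.09). For Grin2a it was −2.16 (SE 0.39, −3.07 to −1.26), and for Grin1 −0.32 (SE 0.19, −0.77 to 0.12). In Aβ neurons the differences were −2.63 for Grin2b (SE 0.14, −2.95 to −2.31), −2.12 for Grin2a (SE 0.24, −2.69 to −1.56) and −0.39 for Grin1 (SE 0.10, −0.63 to −0.15). Without vehicle ribosome library 2 the vehicle difference of Grin1 became −0.53 (−0.79 to −0.27), that of Grin2a −1.72 and that of Grin2b −2.43. These values describe the contrast by which the genes were chosen.

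Among 12144 genes with a recovered transcript length, 40 had a lower ribosome-minus-total difference than Grin2b in vehicle neurons and 5 in Aβ neurons. For Grin2a these numbers were 75 and 35, and for Grin1 3835 and 3165. With a pseudocount of 0.1 in place of 1, the share of genes tested lying lower than Grin2b rose from 0.33% to 0.88% in vehicle neurons. In Aβ neurons it rose from 0.041% to 0.29%. For Grin2a the share rose from 0.62% to 0.91% in vehicle and from 0.29% to 0.54% in Aβ neurons. These ranks therefore depend on the +1. All 3 genes have long transcript models, longer than 88.0% of genes tested for Grin1, 89.8% for Grin2a and 94.0% for Grin2b. The 980 genes of 4000 to 5500 bases were lower in the ribosome fraction than genes in general, with a median difference of −0.29 in vehicle and −0.22 in Aβ neurons. Within that length class 3 genes lay below Grin2b in vehicle and 1 in Aβ neurons, 6 and 5 lay below Grin2a, and 467 and 369 lay below Grin1. Grin1 was therefore near the middle of genes of its model length, and both GluN2 mRNAs were at the low end. The lengths are those of the transcript models, and the lengths of the mRNAs in these neurons were not measured. The part of transcript length in their values was not tested further.

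**Figure D2:**
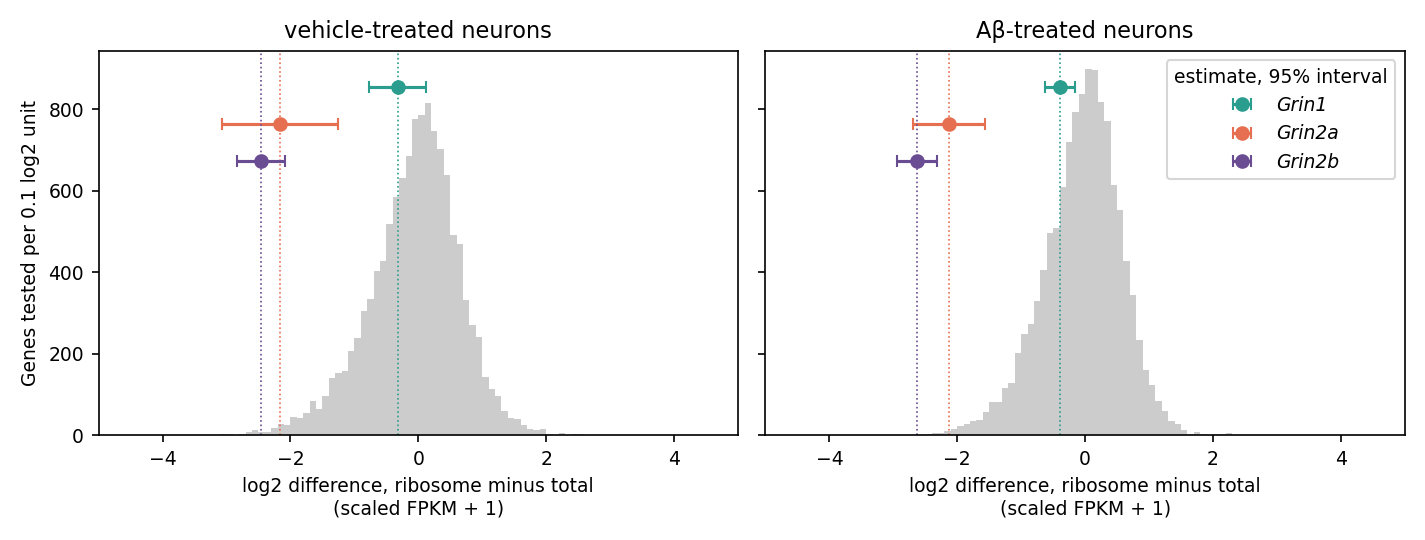
Ribosome-minus-total difference of log2(scaled FPKM + 1) (horizontal axis) in vehicle (left) and Aβ neurons (right); grey bars count the genes tested per 0.1 log2 unit, and coloured points with whiskers are the 3 subunit mRNAs with 95% intervals, their height having no meaning. Grin2b at −2.46 and −2.63 and Grin2a at −2.16 and −2.12 lie in the lower tail, and Grin1 at −0.32 and −0.39 lies within the bulk.

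Differences taken within sets of consecutive library numbers (1 to 4, 5 to 8 and 9 to 12, called runs here, a grouping that the labels do not explain) were negative in every run for Grin2b and Grin2a. In vehicle neurons Grin2b differed between fractions by −2.34, −2.49 and −2.55 in the 3 runs, and in Aβ neurons by −2.67, −2.55 and −2.67. Grin2a differed by −2.90, −2.12 and −1.48 in vehicle neurons and by −2.43, −2.38 and −1.56 in Aβ neurons, smallest in the run of libraries 9 to 12 in both treatments and, in vehicle libraries 2 and 4, larger than that of Grin2b. Grin1 gave 0.068, −0.43 and −0.61 in vehicle and −0.32, −0.40 and −0.45 in Aβ neurons, the only positive value being that of library 2 against library 4. The Grin2b difference therefore varied less among the runs than that of Grin2a in both treatments.

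The ratio of 2 subunits within a library needs no scaling between libraries. Grin2b to Grin1 was 0.244 to 0.336 (median 0.300) in the 6 total libraries and 0.0360 to 0.0640 (median 0.0549) in the 6 ribosome libraries. Grin2a to Grin1 was 0.138 to 0.170 (median 0.160) in total and 0.00696 to 0.0775 (median 0.0324) in ribosome libraries. Neither ratio to the obligatory subunit overlapped between fractions. The contrast of fractions chose these genes and no share over ratios of other genes was computed, so nothing is read from that separation. The summed GluN2 mRNAs amounted to 0.382 to 0.494 of Grin1 in total RNA and to 0.0430 to 0.142 in the ribosome fraction.

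Grin2b to Grin2a, the ratio used as a sign of maturation, behaved otherwise. It was 1.72 to 2.13 (median 1.82) in the total libraries and 0.827 to 5.18 (median 1.57) in the ribosome libraries, so the fractions overlapped. The single values were 5.18, 1.45 and 0.827 in vehicle ribosome libraries 2, 6 and 10 and 1.70, 2.06 and 0.929 in Aβ ribosome libraries 1, 5 and 9. Library 2 was the highest and libraries 9 and 10 the lowest, following Grin2a, and the mean log2 ratio of vehicle ribosome minus vehicle total changed from 0.037 to −0.71 without library 2.

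**Figure D3:**
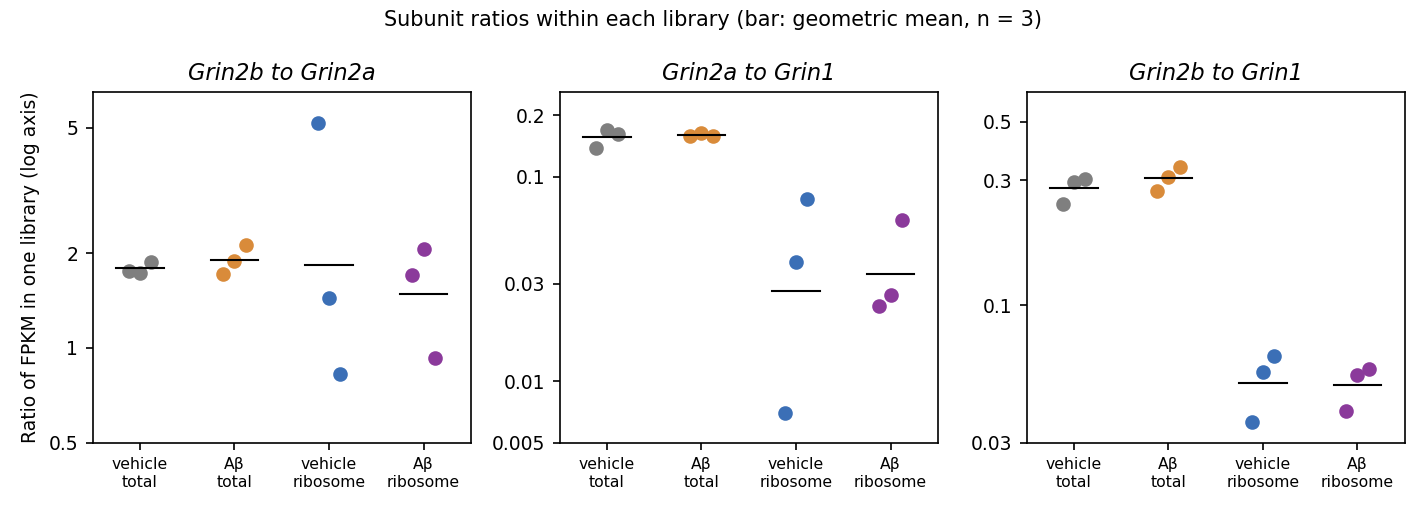
Ratios of FPKM between 2 subunits in each library (vertical log axis, a separate range for each ratio) in the 4 groups; points are single libraries in order of library number and horizontal bars geometric means of 3. Both ratios to Grin1 fall into separate ranges by fraction, and Grin2b to Grin2a overlaps between fractions, with vehicle ribosome library 2 highest at 5.18.

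Expressed as shares of the summed FPKM of the 3 genes, Grin1 made up 66.9 to 72.4% in total RNA and 87.6 to 95.9% in the ribosome fraction. Grin2b made up 17.6 to 22.5% in total and 3.45 to 5.61% in the ribosome fraction, and Grin2a 10.01 to 11.6% and 0.667 to 6.79%.

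Whether Aβ changed the subunit mRNAs was tested with limma across all genes tested, in a fit of all 12 libraries with p-values adjusted by the Benjamini-Hochberg method. None of the 3 genes passed in either fraction, and 0% of genes tested passed at an adjusted p under 0.05 in the ribosome fraction, in total RNA or for the interaction. At an unadjusted p under 0.05, limma gave 178, 20 and 84 genes in these 3 comparisons, none of them a subunit gene.

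In the ribosome fraction the Aβ-minus-vehicle difference was −0.10 for Grin2b (95% interval −0.41 to 0.20), 0.026 for Grin2a (−0.75 to 0.80) and −0.12 for Grin1 (−0.46 to 0.22), on the log2(scaled FPKM + 1) scale and with limma adjusted p of 1.0 each. In total RNA it was 0.071 for Grin2b (−0.23 to 0.37), −0.016 for Grin2a (−0.79 to 0.76) and −0.050 for Grin1 (−0.39 to 0.29), with limma adjusted p of 1 each. This fit shares its spread with the more variable ribosome libraries. In a limma fit of the 6 total libraries alone the intervals were −0.22 to 0.19 for Grin2a, −0.22 to 0.12 for Grin1 and −0.20 to 0.34 for Grin2b, again with adjusted p of 1 each. In the 6 ribosome libraries alone they were wider, at −1.02 to 1.07 for Grin2a, −0.59 to 0.35 for Grin1 and −0.55 to 0.34 for Grin2b. In the fit of 12 libraries the intervals of Grin2b leave room for a change of up to 0.41 log2 units downwards in the ribosome fraction. Those of Grin2a leave room for 0.80 units upwards and 0.75 downwards, so these libraries could not show a moderate change of Grin2a in that fraction.

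Within runs Grin2b was lower with Aβ in the ribosome fraction in 3 of 3 runs, by −0.20, −0.039 and −0.068, and higher with Aβ in total RNA in 3 of 3, by 0.14, 0.023 and 0.052. Grin1 was lower with Aβ in total RNA in 3 of 3 runs, by −0.018, −0.045 and −0.088, and in the ribosome fraction gave −0.40, −0.016 and 0.069. Grin2a gave 0.63, −0.35 and −0.20 in the ribosome fraction and 0.16, −0.093 and −0.12 in total RNA. The share of all genes tested with the same sign in 3 of 3 runs was not computed, so nothing is read from these counts. None of the 3 genes passed the test of either fraction, and single within-run differences such as those of Grin1 and Grin2a in the first run reached the size of the spread between libraries.

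The interaction term asked whether the difference between fractions changed with Aβ. It was −0.17 for Grin2b (95% interval −0.60 to 0.26), 0.042 for Grin2a (−1.06 to 1.14) and −0.067 for Grin1 (−0.55 to 0.42), with limma adjusted p of 1.0 each. A change of the fraction difference with Aβ was therefore not detected for any subunit.

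**Figure D4:**
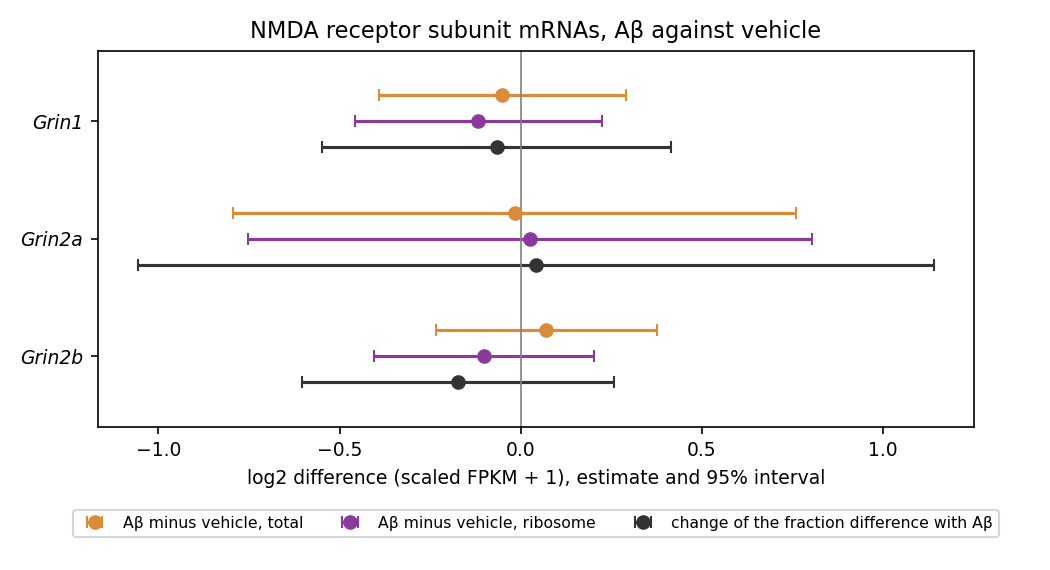
Differences of log2(scaled FPKM + 1) (horizontal axis) for the 3 subunit mRNAs: Aβ minus vehicle in total RNA and in the ribosome fraction, and the interaction, the change of the fraction difference with Aβ. Points are estimates from the fit of 12 libraries, whose spread is shared between fractions, with 95% intervals, all of which include 0; those of Grin2a are the widest in this fit, though not in total RNA fitted alone.

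The subunit ratios were also compared between Aβ and vehicle, in 6 two-sided exact permutation tests over the 20 splits of 3 against 3, in which p cannot go below 0.1. The mean log2 ratio of Grin2b to Grin2a in total RNA was 0.93 ± 0.15 (SD) with Aβ and 0.84 ± 0.059 with vehicle, an exact p of 0.5 (adjusted over the 6 tests, 0.9). In the ribosome fraction it was 0.57 ± 0.60 and 0.88 ± 1.36 (exact p = 0.9, adjusted 0.9). Grin2b to Grin1 in total RNA had the smallest exact p, 0.4 (adjusted 0.9), at −1.71 ± 0.15 with Aβ and −1.84 ± 0.17 with vehicle. The other three comparisons each had an exact p of 0.9 (adjusted 0.9). Since p could not reach 0.05, these tests say nothing about whether the ratios are alike.

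The 3 genes differed in how much they varied among ribosome libraries of either treatment. Over the 6 ribosome libraries the SD of log2(scaled FPKM + 1) was 0.63 for Grin2a, higher than for 93.5% of genes tested, 0.24 for Grin1 and 0.12 for Grin2b, higher than for 8.27%. The median SD of all genes tested was 0.27 in the ribosome and 0.12 in the total libraries. In total RNA the subunits had 0.094 for Grin2a, 0.084 for Grin1 and 0.16 for Grin2b, the last higher than for 70.3% of genes. On this scale, whose +1 narrows the spread of low genes, Grin2a was among the most variable mRNAs of the ribosome fraction. Grin2b was among the steadiest there on the same scale, although the differences of the 2 genes between fractions were of similar size. Grin2b was also a low gene in the ribosome libraries, at 2.42 to 3.38 scaled FPKM. How far the +1 lowered its rank was not tested.

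The libraries that moved Grin2a were library 2, which was low, and libraries 9 and 10, which were high. Relative to the mean of the other 5 ribosome libraries, Grin2a was −1.08 in library 2, 0.72 in library 9 and 0.97 in library 10, and between −0.36 and 0.063 in libraries 1, 5 and 6. The 2499 other genes that were lower in every ribosome library than in every total library moved the same way in libraries 2, 9 and 10, with median deviations of −0.36, 0.27 and 0.23. In library 5 the signs also matched (Grin2a −0.36, other genes −0.14). They were opposite in library 1 (−0.32 and 0.088) and library 6 (0.063 and −0.061). The 2499 genes were picked from these same libraries by the contrast of fractions. Library 2 also had the lowest mean correlation over genes with the total libraries, 0.950, and libraries 9 and 10 had the highest, 0.978 each. Of all 12 libraries, library 2 held the fewest mapped fragments, about 14090000, and the fewest genes above 0, 15079. Library 1 was next lowest in genes above 0 with 15566. In library 2 Grin1 stood 0.56 above the others while Grin2b stood at −0.0021. The part that depth, the recovery of RNA in the pellet, the bead capture used for 3 unnamed samples or the run had in these values was not tested.

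**Figure D5:**
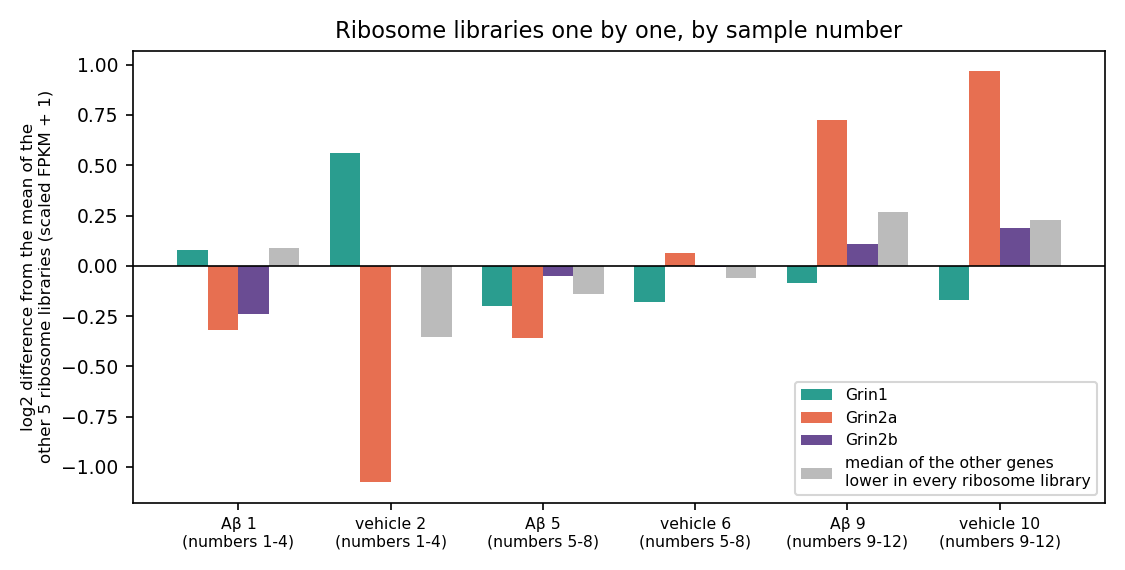
Deviation of each ribosome library from the mean of the other 5 on the log2(scaled FPKM + 1) scale (vertical axis) for the 3 subunit mRNAs and, in grey, the median of 2499 other genes lower in every ribosome library; libraries stand in order of their number, with the run below. Grin2a ranges from −1.08 in library 2 to 0.97 in library 10, while Grin2b stays between −0.24 and 0.19.

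Likeness of pattern was measured as the root mean square difference in log2(scaled FPKM + 1) over the 12 libraries after centring each gene on its mean. The gene nearest to Grin2b was ENSRNOG00000011267, at 0.25 log2 units, with a range of 0.779 to 2.82 scaled FPKM over ribosome and 11.8 to 14.7 over total libraries. Nearest to Grin2a was ENSRNOG00000008444, at 0.11, with 0.788 to 4.24 and 11.2 to 13.2 scaled FPKM. Grin2a ranked 43rd in likeness to Grin2b, at 0.42, Grin2b ranked 258th in likeness to Grin2a, and Grin1 ranked 3309th and 4059th to the pair, at 1.12 and 1.04. These ranks describe patterns that the difference between fractions sets for the most part, and 12 points in 4 groups are shared by all of them.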

How the data were processed

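Poly(A) libraries from 4 groups of 3 (Aβ or vehicle, ribosome pellet or total lysate) were sequenced as paired ends. Per the submitters' processing notes and the study's methods, reads were aligned with TopHat2 2.0.12 on a Bowtie2 2.2.3 index and counted with HTSeq 0.6.1; the genome build, annotation and strand setting are not given in the sources used here. The authors deposited FPKM, which are normalised to mapped fragments and transcript length; the study's DESeq comparison of counts was not used here. An incomplete row was left out.

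Low FPKM were whole multiples of one fragment for 12144 of the 12150 genes tested (tolerance 0.003), which gave mapped totals of about 14090000 to 20037000 fragments, transcript lengths, and the fragments behind each value. Each library was scaled by its median-of-ratios factor (0.826 to 0.982 for ribosome and 1.07 to 1.16 for total libraries), and log2(scaled FPKM + 1) of genes with mean FPKM of at least 1 was fitted with limma 3.58.1 (R 4.3.3; trended eBayes). The +1 understates changes of low genes such as Grin2a in the ribosome fraction. Aβ comparisons used 1 fit of 12 libraries; fraction differences used a fit of 6 libraries per treatment and carry no p, because that contrast chose the genes. Ratios were tested with exact permutation tests (scipy 1.17.1). Fitting was tested on simulated counts with the same dispersion for every gene, and a spread as wide as that of Grin2a in the ribosome libraries was not simulated. The step from FPKM to whole fragments was tested on simulated data with the library depths given. The inference of depths and transcript lengths was not tested in this way. No library or gene column was left unmapped.

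The genes, comparisons and lists were chosen with earlier results of these data known. Named genes were the 3 subunits and, by likeness, at most 1 identifier each for Grin2b, Grin2a and Grin1 in that order, with no more than 2 in one direction. Lists of other glutamate receptor subunits, postsynaptic partners and cell type markers could not be applied, because 0 identifiers of the file matched the RefSeq table given; the 3 subunit symbols came with the choice of genes. Alternatives were FPKM as deposited, upper-quartile scaling, a pseudocount of 0.1, no filter or a mean of at least 5, eBayes without trend, array weights, a block of runs, separate or joint fits, recovered fragments with no pseudocount, and leaving out each library.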

Additional observations from a re-analysis of the deposited data

Results flagged for a closer look

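One value stood apart from the rest of its fraction. Grin1 in vehicle ribosome library 2 was at 81.2 scaled FPKM, and its gap to the next ribosome library was 0.686 of the whole range of the 6 ribosome libraries, above the value that Dixon's criterion sets for 6 samples. In FPKM as deposited the same library was again the highest, at 71.9, but the share was 0.418 and did not pass. Of 6 sets of 6 libraries examined (3 genes, 2 fractions) this was the only one to pass in scaled FPKM, and chance alone passes about 1 in 20.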

How the results depend on the processing

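No subunit mRNA passed the Aβ tests under any alternative run. With array weights the direction of these small differences changed for Grin1 in the ribosome fraction (0.075) and for Grin2a in the ribosome fraction (−0.13) and total RNA (0.044), and the interaction became 0.14 for Grin1 and −0.17 for Grin2a; as deposited the Grin1 interaction was 0.010. Leaving out single libraries gave Aβ-minus-vehicle ranges of −0.22 to 0.088 for Grin1 and −0.42 to 0.43 for Grin2a in ribosome, −0.090 to 0.048 for Grin2a and −0.019 to 0.17 for Grin2b in total, and interactions of −0.17 to 0.14 for Grin1 and −0.40 to 0.45 for Grin2a. The signs turned without vehicle ribosome library 2 (Grin1, Grin2a) or Aβ ribosome library 9 (Grin2a), and in total without libraries 7 or 12 (Grin2a) or 4 or 11 (Grin2b); without library 12 the Grin2a interaction turned too. Genes called over all genes were 4 in total and 4 for the interaction with no filter, and 0 to 1 in both when single libraries were left out (1 without vehicle total library 8).

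Fraction differences kept their direction under every alternative run. As deposited they were −0.66 for Grin1 and −2.75 for Grin2b in vehicle and −0.65 and −2.86 in Aβ neurons, and 4033 genes were lower and 1102 higher in every ribosome library. With a pseudocount of 0.1 Grin2b was −2.76 in vehicle and −2.97 in Aβ neurons, and Grin2a −2.58 in Aβ neurons. From recovered fragments without a pseudocount, Grin2a was −2.84 and Grin2b −2.80 in vehicle, and −2.65 and −3.01 in Aβ neurons. Smaller pseudocounts enlarge the differences of low genes by construction.

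For log2 ratios, leaving out single libraries gave Aβ-minus-vehicle ranges of −0.88 to 0.44 for Grin2b to Grin2a, −0.70 to 1.04 for Grin2a to Grin1 and −0.26 to 0.15 for Grin2b to Grin1 in ribosome, and −0.055 to 0.095 for Grin2a to Grin1 in total. Ribosome minus total of Grin2b to Grin2a in vehicle ran from −0.71 (without library 2) to 0.61, and was −0.034 with a pseudocount of 0.1. The first 2 turned without library 2 or 9, the third without 1, 6 or 10, and the total ratio without 4. The cause of these changes of sign was not tested. The replicate block of runs changed no call: 0 genes passed, with 202, 31 and 90 of 12150 genes at an unadjusted p under 0.05 in ribosome, total and interaction. The study describes the sequencing of the fractions as paired, but the labels do not name the pairs, and the runs are inferred from library numbers. At the mean fragments of a group, counting error was a CV of 8.28 to 8.37% for Grin2a in the ribosome groups. The CV between libraries was 56.5 to 79.6% there. Vehicle ribosome library 2 had only 31 Grin2a fragments, so its own counting error was larger than that of its group. The part of depth in this spread was not tested. For Grin2b the counting and between-library CVs were 6.58 and 8.64% in vehicle ribosome and 6.53 and 13.5% in Aβ ribosome.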
